A study of Mus musculus with 20 samples.

Results

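A set of 9 enzymes that oxidise, reduce or conjugate foreign and endogenous small molecules was followed in the mouse trachea, namely the cytochrome P450s Cyp2f2, Cyp2b10, Cyp4b1 and Cyp2s1, the flavin monooxygenases Fmo1 and Fmo2, the carbonyl reductase Cbr2, the retinaldehyde dehydrogenase Aldh1a1 and the sulfotransferase Sult1b1. All non-control probes that the array files name for these 9 genes were taken, which gave 15 of 41174 probes. Of these, 12 entered the test, for which a probe had to exceed background clearly on 10 or more of the 20 arrays, out of 26067 tested in all, and every gene had at least 1 tested probe. The other 3 are the second probes of Cyp2s1 and Fmo1, which were well above background on 0 arrays, and the third probe of Fmo2, which was so on 3 arrays.

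The RNA came from whole trachea, freed of excess connective tissue, of C57/Bl6 wild-type mice and of Myd88 knockout (Myd88KO) mice, which lack Myd88, the adaptor protein of most Toll-like receptors and of the interleukin-1 receptor. Mice were 4 months old by the labels, and each of the 4 groups held 5 samples, labelled WT-control (uninjured wild-type), KO-control (uninjured Myd88KO), WT-injury (injured wild-type) and KO-injury (injured Myd88KO). Injured mice had received 2% polidocanol, a detergent that strips the tracheal epithelium, and were killed 3 days later, whereas the uninjured mice received no polidocanol. The knockout was a germline deletion bred as a colony of its own, so that genotype and colony cannot be told apart, and the mice of the study were of both sexes.

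Xenobiotic metabolism runs in stages. Cytochrome P450s and flavin monooxygenases add or expose a reactive group, reductases and dehydrogenases interconvert the alcohols, aldehydes and ketones that result, and transferases such as sulfotransferases attach a polar group that aids export. In the mouse airway much of this activity resides in club cells, the secretory cells that also make Scgb1a1 (CCSP), and Cyp2f2 is the club cell enzyme that activates naphthalene. Several of these genes are also active in other tissues, among them the liver, where Cyp2b10 is the usual readout of the nuclear receptor CAR.

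The stretch around the transcription start was read from RefSeq (GRCm38.p6) for the 8 members that had an entry, which gave 11 windows of 250 bases before to 50 bases after a start. Fmo1 was without an entry. The windows of Cyp4b1 and Fmo2 are shown because both genes fell after injury, and that of Cyp2f2 because its own signal gave no call. Capitals mark the matches to 5 motifs searched on both strands, which were TATAAA (a core promoter motif), GCGTG (core of the xenobiotic response element), TGACNNNGC (core of the antioxidant response element), AGGTCA (nuclear receptor half-site) and TGTTTAC (FOXA core), and no motif overlapped another in the windows shown.
Cyp4b1, chr4:115647672-115647971, minus strand: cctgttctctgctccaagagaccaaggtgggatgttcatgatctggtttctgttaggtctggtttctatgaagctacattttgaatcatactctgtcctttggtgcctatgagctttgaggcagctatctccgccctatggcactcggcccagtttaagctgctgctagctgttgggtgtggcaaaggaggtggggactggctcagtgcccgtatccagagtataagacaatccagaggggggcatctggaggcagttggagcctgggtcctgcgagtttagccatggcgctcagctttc
Fmo2, chr1:162898444-162898743, minus strand: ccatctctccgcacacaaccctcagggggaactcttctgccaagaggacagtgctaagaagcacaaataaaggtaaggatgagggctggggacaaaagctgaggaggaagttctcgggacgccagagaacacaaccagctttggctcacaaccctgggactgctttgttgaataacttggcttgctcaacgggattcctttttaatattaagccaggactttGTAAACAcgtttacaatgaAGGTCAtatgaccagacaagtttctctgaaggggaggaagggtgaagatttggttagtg
Cyp2f2, chr7:27119705-27120004, plus strand: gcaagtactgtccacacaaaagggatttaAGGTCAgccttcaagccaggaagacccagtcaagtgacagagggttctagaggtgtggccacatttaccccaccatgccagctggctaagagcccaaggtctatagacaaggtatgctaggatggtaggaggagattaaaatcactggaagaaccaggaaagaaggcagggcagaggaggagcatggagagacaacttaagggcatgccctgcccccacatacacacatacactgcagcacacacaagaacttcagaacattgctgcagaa
The Cyp4b1 window held none of the 5 motifs. The Fmo2 window held a FOXA core, on the opposite strand, and a nuclear receptor half-site, and that of Cyp2f2 a half-site close to the upstream end of the window. Over the 11 windows, the half-site was found in 3, where 16.3% of all 32851 RefSeq windows hold it, and the xenobiotic response element core in 2, those of Cyp2b10 and Sult1b1, against 32.4% of all windows. The FOXA core was in 1 member window (3.65% of all windows), and TATAAA and the antioxidant response element core in 0 (13.6% and 12.4% of all windows). A second RefSeq start of Fmo2, whose window overlaps the one shown, held none of them.

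Every level given here is a log2 intensity relative to the 75th percentile of the same array, so that a difference of 1 is a doubling, and levels of different probes are not comparable with one another. A probe was called when its adjusted p (limma on all 20 arrays, Benjamini-Hochberg over the tested probes of a comparison) was under 0.01. Each of 5 slides held 1 array of every group, and slides 2, 3 and 4 were scanned on one day and slides 1 and 5 on another. The replicate number is the slide number, so that replicates 1 and 5 of every group share the second scanning day. The Myd88 probe read 1.94 to 2.28 on uninjured wild-type and 1.60 to 2.04 on uninjured Myd88KO arrays, which overlap, and 2.36 to 2.80 on injured wild-type and 1.54 to 2.09 on injured Myd88KO arrays, which do not. Where this probe lies relative to the deletion was not analysed here. Injured Myd88KO replicate 5 stood apart. It had the most outlier spots (192, the others 69 to 113) and the lowest share of spots well above background (57.5%). On 1354 probes called after injury in wild-type tracheas, it carried a share of −0.03 of the mean wild-type response, where uninjured arrays lay between −0.07 and 0.12, the other injured Myd88KO arrays between 0.34 and 0.97 and the injured wild-type arrays between 0.85 and 1.14. The member differences in injured Myd88KO tracheas and the counts of calls there are therefore given with and without it. Since it was set apart by its low injury response, calls made without it are no independent support for such a response.

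After injury of wild-type tracheas, Cyp4b1, Fmo2 and Aldh1a1 fell. The 4 probes of these 3 genes were called lower out of the 12 tested, and 0 were called higher, beside 2.03% of all tested probes called lower and 5.26% called in either direction. All 12 differences were below 0, with a median of −1.61 where the median of all tested probes was 0.00, and the injured and uninjured arrays did not overlap for 7 of the 12 (4.68% of all tested probes did not overlap in this direction). An unadjusted p under 0.05 was reached by 10 of the 12, against 26.4% of all tested probes. In whole trachea, fewer cells of a type and less RNA per cell cannot be told apart.

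**Figure D1:**
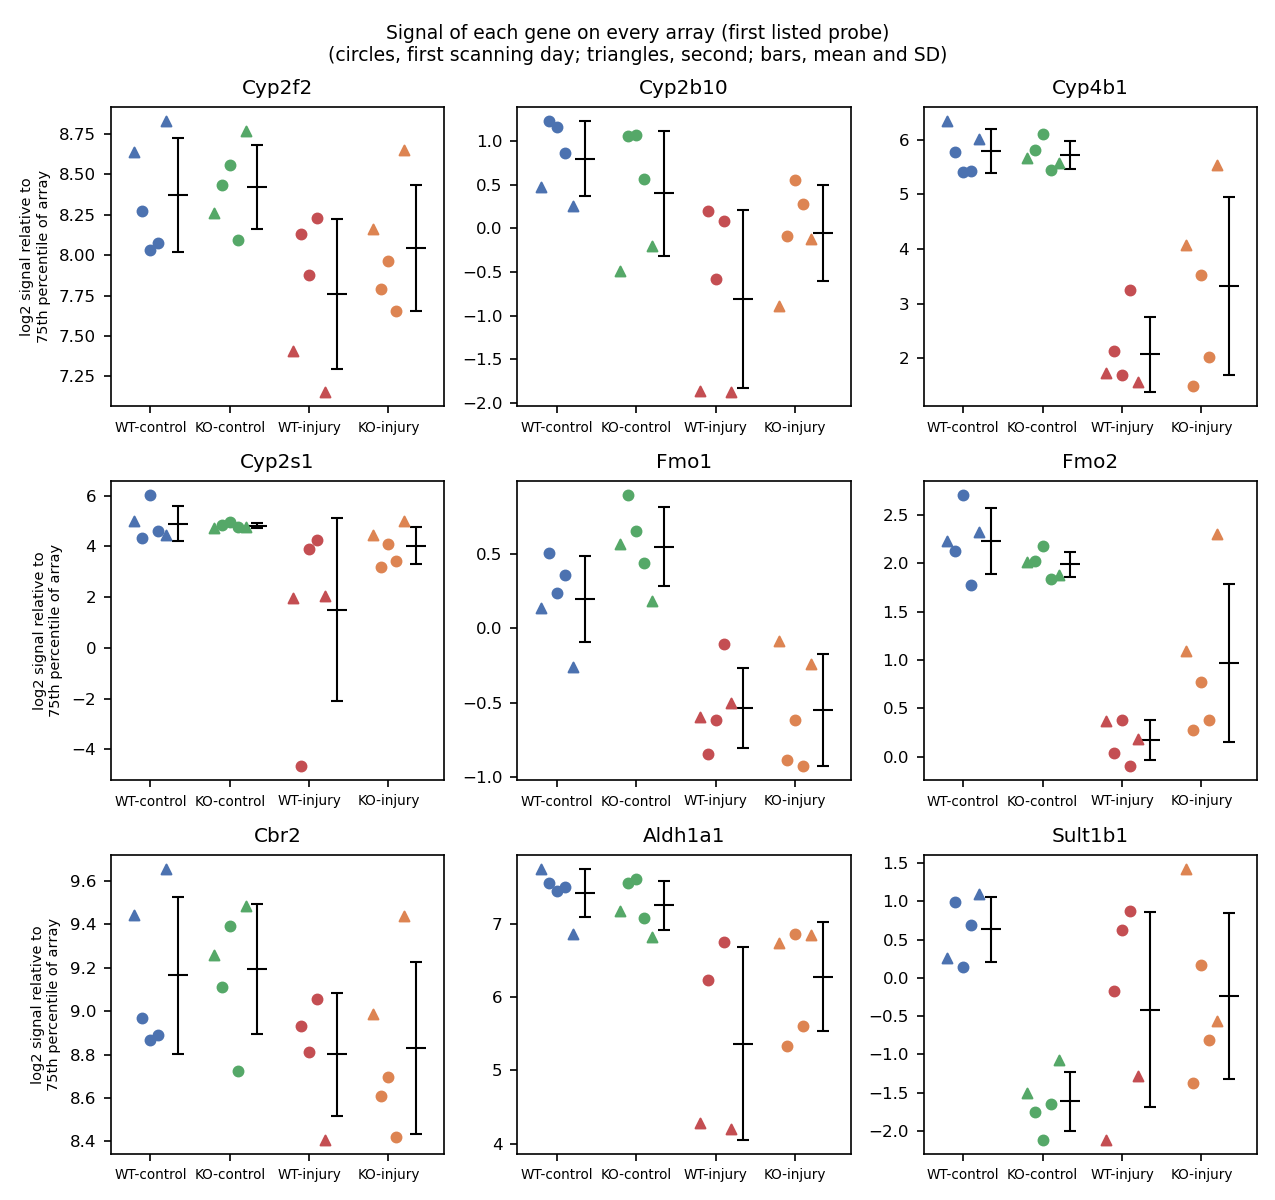
Log2 signal relative to the 75th percentile of the array (vertical axes, each with its own range) for the first listed probe of the 9 genes in the 4 groups. Each point is 1 array, circles and triangles mark the first and second scanning day, and bars give the mean and SD. Cyp4b1 and Fmo2 and, by narrow gaps, Aldh1a1, Cyp2b10 and Cyp2s1 separate injured from uninjured wild-type arrays. Sult1b1 separates the uninjured genotypes, and the injured wild-type triangles lie low for Cyp2f2, Cyp2b10 and Aldh1a1.

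Cyp4b1, a P450 that hydroxylates fatty acids and bioactivates furans and aromatic amines, showed the largest fall of the 12 probes. Its levels were 6.35, 5.78, 5.41, 5.43 and 6.02 in uninjured wild-type replicates 1 to 5 and 1.72, 2.13, 1.69, 3.25 and 1.56 in injured ones. The highest injured array, replicate 4, still lay well below the lowest uninjured array. The difference was −3.73 (SE 0.53, adjusted p = 0.00038 by limma), a 13.2-fold lower signal, with each of the 5 slides lower. It was −3.18 within the first and −4.54 within the second scanning day.

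Fmo2, the main flavin monooxygenase of the lung in most mammals, oxidises sulfur- and nitrogen-containing compounds. Its first probe, at position 162837701 to 162837760 of chromosome 1 in the files, read 2.24, 2.12, 2.71, 1.78 and 2.33 before and 0.37, 0.03, 0.37, −0.10 and 0.19 after injury in wild-type tracheas. The groups were far apart and the injured arrays lay close together (SD 0.21, n = 5). The fall was −2.06 (SE 0.28, adjusted p = 0.000256 by limma) for this probe, or 4.18-fold, and −1.996 (SE 0.24, adjusted p = 0.000116 by limma) for the second. The differences within the 2 scanning days were close, at −2.10 and −2.004 for the first probe and −2.21 and −1.67 for the second.

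Aldh1a1 makes retinoic acid from retinaldehyde and also clears aldehydes of lipid peroxidation. Its levels were 7.75, 7.56, 7.46, 7.51 and 6.87 in uninjured wild-type tracheas and 4.27, 6.23, 6.76 and 4.20 in injured replicates 1, 2, 4 and 5, the spot of replicate 3 having been left out as an outlier by the scanner software. Injured replicates 1 and 5 were by far the lowest, although all 4 lay below the uninjured arrays. Aldh1a1 fell by 2.06 (SE 0.46, adjusted p = 0.00708 by limma, 4.18-fold). The difference was −1.01 within the first and −3.08 within the second scanning day, and the call was lost without injured wild-type replicate 1 (−1.70, adjusted p = 0.0298) or 5 (−1.67, adjusted p = 0.0278), without uninjured wild-type replicate 1, 2, 3 or 4 or uninjured Myd88KO replicate 4 (adjusted p 0.00215 to 0.0298 over all 20 omissions), and under 4 of the processing alternatives. Whether this probe also binds the closely related Aldh1a7 transcript could not be checked.

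Cyp2b10, which oxidises many drugs and steroids, was lower in injured wild-type tracheas without passing the threshold. Its first probe read 0.48, 1.24, 1.16, 0.87 and 0.25 in uninjured and −1.87, 0.19, −0.58, 0.09 and −1.88 in injured wild-type tracheas. Replicates 1 and 5 again gave the lowest injured values, and no injured array reached the uninjured range. The differences of the 2 probes were −1.61 (SE 0.42, adjusted p = 0.0162 by limma) and −1.56 (SE 0.38, adjusted p = 0.0113 by limma). Both probes were called when the slide or the scanning day was a block or when arrays were weighted by quality. Other Cyp2b transcripts could contribute to these probes, whose sequences are not in the files used here.

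Cyp2s1, an extrahepatic P450 that responds to dioxin through the aryl hydrocarbon receptor, read 5.01, 4.34, 6.04, 4.59 and 4.45 in uninjured and 1.98, −4.67, 3.90, 4.24 and 2.06 in injured wild-type tracheas. Injured replicate 2 stood far below every other array. The difference was −3.39 (SE 1.08, adjusted p = 0.0449 by limma), and it was −1.84 (SE 0.46, adjusted p = 0.0176) without that replicate.

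Cyp2f2 and Cbr2, a carbonyl reductase abundant in the airway, kept high signals. Whether signals this bright still change in proportion to the RNA was not tested, which limits the reading of small differences. Cyp2f2 read 8.64, 8.27, 8.03, 8.07 and 8.83 in uninjured and 7.41, 8.13, 7.88, 8.23 and 7.15 in injured wild-type tracheas. Only replicates 1 and 5 lay below the lowest uninjured array by more than 0.5, and replicates 2 and 4 fell inside the uninjured range. The difference was −0.61 (SE 0.23, 95% interval −1.10 to −0.12, adjusted p = 0.0933 by limma), and it was −0.04 within the first and −1.46 within the second scanning day. Cbr2 read 9.44, 8.97, 8.87, 8.89 and 9.66 in uninjured tracheas and 8.93, 8.81, 9.05 and 8.41 in injured replicates 2 to 5, replicate 1 having been left out as an outlier spot. All but replicate 5 lay within 0.1 of the uninjured range or inside it, and the difference was −0.36 (SE 0.23, 95% interval −0.84 to 0.11, adjusted p = 0.331 by limma). Among the 36 pairs of members, the profiles of Cyp2f2 and Cbr2 over the arrays were the most alike, with a root mean square difference of 0.137 after each was centred on its mean (19 arrays), where the next pair, Cyp2f2 and Fmo1, differed by 0.487. In uninjured wild-type tracheas both genes read highest on replicate 5, whose array had the lowest 75th percentile of that group (495). Both read lowest on replicate 3, which had the highest (873). How much of the likeness comes from the shared scaling was not tested.

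Fmo1, a flavin monooxygenase with broad substrates, read 0.14, 0.51, 0.24, 0.36 and −0.26 in uninjured and −0.59, −0.85, −0.62, −0.11 and −0.50 in injured wild-type tracheas. Injured replicate 4 overlapped with uninjured replicate 5. The difference of −0.73 (SE 0.20, adjusted p = 0.0184 by limma) missed the threshold. Sult1b1, which sulfates phenols and thyroid hormones, read 0.26, 0.99, 0.14, 0.68 and 1.09 in uninjured and −2.12, −0.18, 0.63, 0.87 and −1.28 in injured wild-type tracheas with its first probe. Replicates 1 and 5 accounted for the lowest values and replicates 3 and 4 lay inside the uninjured range. The differences of −1.05 (SE 0.52, adjusted p = 0.203 by limma) and −1.60 (SE 0.60, adjusted p = 0.0846 by limma) for its 2 probes did not pass.

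Injured wild-type replicates 1 and 5 were among the 2 lowest arrays of their group for 7 and 8 of the 12 probes. They had the highest shares of the injury response, 1.14 and 1.13, and were those of the second scanning day, so that for these arrays scanning day and extent of response cannot be told apart. For both Fmo2 probes replicates 2 and 4 were the lowest instead.

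**Figure D2:**
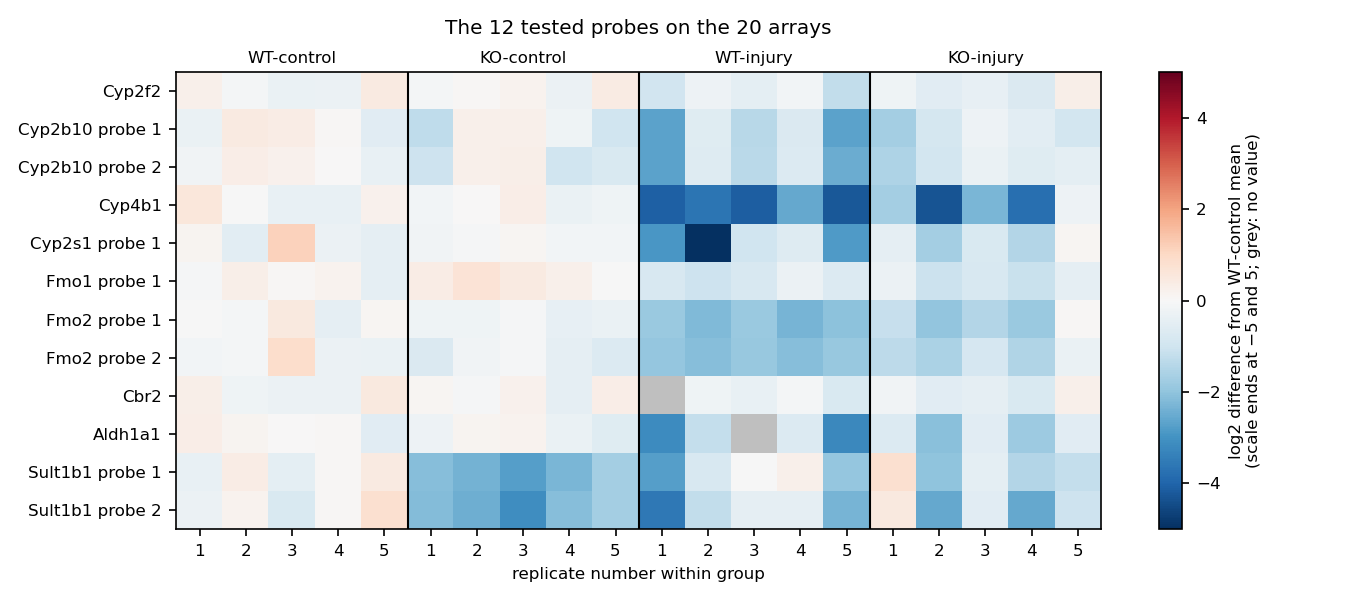
The 12 tested probes (rows) on the 20 arrays (columns, by group and replicate number), coloured by the log2 difference from the mean of the uninjured wild-type arrays. The scale ends at −5 and 5, and grey marks the 2 spots left out. Injured Myd88KO replicate 5 has the colours of an uninjured array for Cyp4b1 and Fmo2, and both Sult1b1 probes are low in all 5 uninjured Myd88KO arrays.

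To set the injury differences of members against one another, the Cyp2f2 level was subtracted from that of another gene on each array. These 5 genes were chosen after their values were seen, so that the values are a description without a test. In wild-type tracheas, injured less uninjured, this difference was −3.12 for Cyp4b1, −1.45 for the first Fmo2 probe, −1.42 for Aldh1a1 and 0.16 for Cbr2. In Myd88KO tracheas, replicate 5 included, it was −2.02 for Cyp4b1, −0.64 for the first Fmo2 probe, −0.60 for Aldh1a1 and 0.02 for Cbr2. Scgb1a1, the club cell secretoglobin, gave −7.30 in wild-type and −5.71 in Myd88KO tracheas, the latter without injured replicate 5, whose spot was left out. The limit given above for the bright Cyp2f2 signal holds for all of these values.

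Some cell type markers differed after injury of wild-type tracheas, where 2.03% of all tested probes were called lower and 5.26% in either direction. Of 5 club cell markers, 2 were called lower in injured wild-type tracheas, Scgb1a1 by −7.91 and Scgb3a2 by −5.77. The other 3 were not called, with −0.11 for Scgb3a1, −0.65 for Cldn10 and 0.30 for Aqp5. The summed signal of the 5, as a multiple of the 75th percentile, was 995 to 1872 on uninjured and 548 to 690 on injured wild-type arrays. This sum, like those of the other lists, is weighted towards the brightest probes and does not measure cell content. Scgb3a1 read 8.23 to 9.44 on uninjured and 8.53 to 9.13 on injured wild-type arrays. The Scgb1a1 probe read 6.98 to 7.93 on uninjured and −1.16 to −0.08 on injured ones. Of 6 ciliated cell markers, Dnah5 was called lower in wild-type tracheas and the sums overlapped (27.7 to 71.7 uninjured, 4.51 to 58.2 injured). Of 4 surfactant genes, Sftpa1, Sftpc and Sftpd were called lower, with sums of 32.0 to 82.2 and 8.07 to 15.9. Of 6 myeloid markers, Itgam and Csf1r were called higher, with sums of 300 to 533 and 334 to 638, and of 5 basal cell markers 0 were called. The part of these cells in the results was not tested. Of the 4 hepatocyte markers, Alb, Ttr and Cps1 were well above background on 0 arrays and Apoa1 on 1. Adipocyte, skeletal muscle, thyroid, fibroblast, cartilage and smooth muscle markers were detected in all 4 groups, apart from Lep, which was not well above background on any injured wild-type array, and none of those tested was called in either injury comparison.

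After injury of Myd88KO tracheas, Fmo1 fell and was the 1 probe called of 12, beside 0.376% of all tested probes. Of the 12 differences, 10 were below 0, the median was −0.58 where that of all probes was −0.07, and 6 had an unadjusted p under 0.05 (19.5% of all tested probes). Fmo1 read 0.57, 0.90, 0.65, 0.44 and 0.18 in uninjured and −0.09, −0.89, −0.62, −0.92 and −0.24 in injured Myd88KO tracheas. The groups did not overlap, although uninjured replicate 5 and injured replicate 1 were close. The fall was −1.10 (SE 0.20, adjusted p = 0.00796 by limma, 2.14-fold), where 2.3% of all tested probes had injured arrays wholly below uninjured ones. The call was lost when any 1 of 13 of the 20 arrays was left out, namely any uninjured Myd88KO array, injured Myd88KO replicate 2, 3 or 4, uninjured wild-type replicate 1 or 4, or injured wild-type replicate 1, 3 or 5 (adjusted p 0.00125 to 0.0334 over all 20 omissions). It was also lost with the slide as a block (adjusted p = 0.0120), with median scaling (0.0231), with no filter on dim probes (0.0129) and with only the 2 groups compared (0.0671). The one-way parametric test of the paper's methods, after adjustment, did not call it either. In this comparison that test and the fit of only the 2 groups called 0 of all tested probes, so that these losses are not particular to Fmo1.

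Cyp4b1 read 5.67, 5.81, 6.11, 5.45 and 5.57 in uninjured and 4.08, 1.49, 3.52, 2.02 and 5.54 in injured Myd88KO tracheas. The injured arrays spread over the whole distance between replicates 2 and 4, which were as low as injured wild-type arrays, and replicate 5, which lay in the uninjured range. The difference was −2.40 (SE 0.53, adjusted p = 0.0222 by limma) with replicate 5 and −2.95 (SE 0.43, adjusted p = 0.00032 by limma) without it. The first Fmo2 probe behaved likewise, with 2.02, 2.03, 2.18, 1.84 and 1.89 in uninjured and 1.09, 0.28, 0.77, 0.38 and 2.31 in injured Myd88KO tracheas. Here injured replicate 5 was the highest of the 10 arrays, and the other 4 lay below all uninjured ones. Its difference was −1.02 (SE 0.28, adjusted p = 0.0496 by limma) with and −1.36 (SE 0.19, adjusted p = 0.000188 by limma) without replicate 5. The second Fmo2 probe was called in neither case, at −0.70 (adjusted p = 0.121 by limma) with and −0.89 (adjusted p = 0.0162 by limma) without it. Without that array Fmo1 was also called (−1.18, adjusted p = 0.00125), so that 3 member probes were called in place of 1, and 1075 of all tested probes (4.12%) in place of 98. The probes that set replicate 5 apart include those of Cyp4b1 and Fmo2, so that their values without it are a description.

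The other members gave no call in injured Myd88KO tracheas, with or without replicate 5. Aldh1a1 read 7.18, 7.57, 7.62, 7.08 and 6.83 in uninjured and 6.75, 5.33, 6.86, 5.61 and 6.85 in injured Myd88KO tracheas. Replicates 2 and 4 were the low ones, and they were among the 2 lowest injured Myd88KO arrays for 11 and 10 of the 12 probes. The difference was −0.98 (SE 0.44, adjusted p = 0.228 by limma), and −1.12 (adjusted p = 0.127 by limma) without replicate 5. Cyp2f2 lay between 7.66 and 8.65 after injury against 8.09 to 8.77 before, a difference of −0.38 (SE 0.23), and Cbr2 between 8.42 and 9.44 against 8.72 to 9.48, −0.36 (SE 0.21). Cyp2s1 ranged from 3.17 to 5.00 against 4.72 to 4.97 (difference −0.78, SE 1.08) and the first Cyp2b10 probe from −0.90 to 0.55 against −0.49 to 1.07 (difference −0.46, SE 0.42). Without replicate 5 these differences were −0.53 for Cyp2f2, −0.52 for Cbr2, −1.02 for Cyp2s1 and −0.44 for the first Cyp2b10 probe. Of the club cell markers, Scgb1a1 was called lower in Myd88KO tracheas (−6.24 over injured replicates 1 to 4, since the spot of replicate 5 was left out). The summed signal of the 5 was 1150 to 1834 on uninjured arrays and 501 to 832 on injured replicates 1 to 4. Injured replicate 5 reached 1346 with the 4 markers other than Scgb1a1. With replicate 5 included, 2 of the 4 surfactant genes were also called lower in Myd88KO tracheas (median −2.51). Of the ciliated, basal and myeloid markers 0 were called, beside 0.376% of all tested probes.

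Sult1b1 was the only one of the 9 members whose difference in Myd88KO tracheas pointed the other way after injury. Its first probe read −1.50, −1.75, −2.12, −1.65 and −1.07 in uninjured and 1.43, −1.38, 0.16, −0.82 and −0.57 in injured Myd88KO tracheas. On each of the 5 slides the injured array was the higher one, although replicate 2 stayed within the uninjured range. With the second probe the injured array was higher on 3 slides and lower on 2. The differences were 1.38 (SE 0.52, adjusted p = 0.147 by limma) and, for the second probe, 1.06 (SE 0.60, adjusted p = 0.344 by limma), which are no calls. They were 1.46 and 1.00 without replicate 5.

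**Figure D3:**
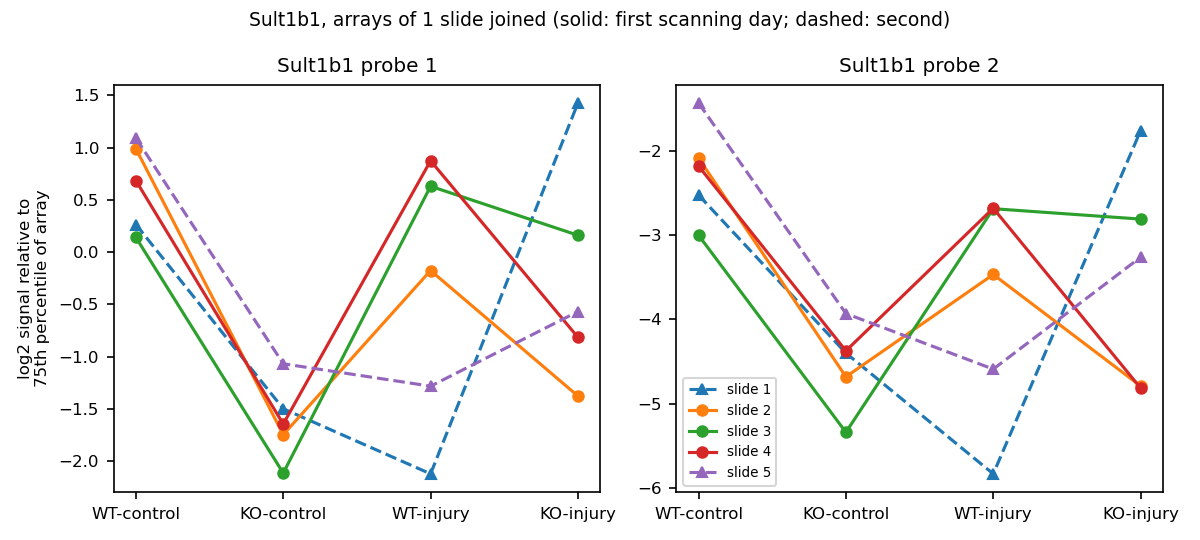
Log2 signal relative to the 75th percentile of the array for the 2 Sult1b1 probes in the 4 groups, with the arrays of 1 slide, which are different mice, joined. Solid lines are the first and dashed lines the second scanning day. On all 5 slides the uninjured Myd88KO array lies below the uninjured wild-type array, whereas the order after injury differs between slides.

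Between uninjured genotypes 0 of the 12 member probes were called, beside 0.384% of all tested probes, and the median difference was −0.21 (0.04 over all probes). An unadjusted p under 0.05 was reached by 2, both of Sult1b1 (5.59% of all tested probes), and 0 were called by the same test with the slide as a block. The 2 Sult1b1 probes were also those whose groups did not overlap, with the Myd88KO arrays lower (0.802% of all tested probes). The values given above put the first probe at 0.14 to 1.09 in uninjured wild-type and −2.12 to −1.07 in uninjured Myd88KO tracheas, and the second read −3.005 to −1.44 and −5.34 to −3.93. The differences were −2.25 (SE 0.52, adjusted p = 0.0549 by limma), 4.76-fold lower, and −2.30 (SE 0.60, adjusted p = 0.131 by limma), 4.91-fold lower. They varied little over the 5 slides, from −2.74 to −1.76 for the first probe. When the 2 uninjured groups were fitted alone, which leaves out the wide spread of the injured arrays, the adjusted p was 0.000457 and 0.00308. Both were called, beside 100 of all tested probes. The study named this gene from these same samples, so that the difference is not independent evidence.

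The other members gave no call between uninjured genotypes. Fmo1 was higher in Myd88KO tracheas on all 5 slides, by 0.35 (SE 0.20, adjusted p = 1.00 by limma), and the second Fmo2 probe was lower on all 5, by −0.42 (SE 0.24, adjusted p = 1.00 by limma). The first Cyp2b10 probe was also lower on all 5 slides, with −0.40 (95% interval −1.27 to 0.48), and the second on 4, with −0.45 (−1.26 to 0.35). For Cyp2f2 the difference was 0.05 (95% interval −0.43 to 0.54), for Cbr2 0.03 (−0.42 to 0.48), for Cyp4b1 −0.07 (−1.19 to 1.05) and for Aldh1a1 −0.17 (−1.09 to 0.74). The widest interval was that of Cyp2s1, with −0.08 (−2.34 to 2.18), and those of Cyp4b1 and Aldh1a1 still allow differences of about 1 in either direction.

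Between injured genotypes 0 member probes were called (0.38% of all tested probes), 4 had an unadjusted p under 0.05 (12.5% of all tested probes), and 11 of the 12 were higher in Myd88KO tracheas, with a median of 0.77. The median of all tested probes was −0.03, and these values include injured Myd88KO replicate 5. Without that array 0 member probes and 85 of all tested probes (0.326%) were called. The difference of Cbr2 then turned from 0.03 to −0.12, and that of Fmo1 stayed below 0, at −0.09. The second Fmo2 probe was the 1 whose injured groups did not overlap, with −3.30 to −3.08 in wild-type and −2.74 to −1.50 in Myd88KO tracheas, higher in Myd88KO on all 5 slides (0.694% of all tested probes did not overlap in this direction). Its difference was 0.88 (SE 0.24, adjusted p = 0.121 by limma), and 0.68 (SE 0.23, adjusted p = 0.295) without injured Myd88KO replicate 5. Cyp4b1 differed by 1.26 (SE 0.53, adjusted p = 0.329 by limma), which became 0.71 (SE 0.43) without it.

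Several members differed between scanning days in this comparison. Within the first day the difference between injured genotypes was −0.28 for Cyp2f2, −0.01 for Cyp4b1, −0.36 for Cbr2, −0.56 for Aldh1a1 and −1.12 for the first Sult1b1 probe. Within the second day, with 2 arrays in each group, which for Myd88KO are injured replicates 1 and 5 with the lowest shares of the injury response (0.34 and −0.03), the same differences were 1.13, 3.17, 0.80, 2.56 and 2.13. The signs of the 2 days were opposite for these 5 probes, and also for Fmo1 (−0.28 and 0.39) and the second Sult1b1 probe (−1.19 and 2.70). Both days had the same sign for Fmo2 (0.38 and 1.43 for the first probe, 0.74 and 1.09 for the second), for Cyp2b10 (0.35 and 1.36, 0.27 and 1.55) and for Cyp2s1 (2.41 and 2.70). The first-day value of Cyp2s1 rests on injured wild-type replicate 2, at −4.67. Injured wild-type replicates 3 and 4 read 3.90 and 4.24, against 3.17, 4.11 and 3.43 in injured Myd88KO replicates 2 to 4.

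The injury responses of the 2 genotypes were also compared directly, as the Myd88KO difference minus the wild-type difference. Here 0 of the 12 member probes and 0 of all 26067 tested probes (0%) were called by limma, 5 member probes, of Cyp2b10, Fmo2 and Sult1b1, and 10.4% of all tested probes had an unadjusted p under 0.05, and 10 of the 12 values were above 0. The 2 Sult1b1 probes gave 2.43 (SE 0.73, 95% interval 0.91 to 3.96, adjusted p = 0.391 by limma) and 2.66 (SE 0.84, 95% interval 0.90 to 4.42, adjusted p = 0.391 by limma). The second Fmo2 probe gave 1.30 (SE 0.35, 95% interval 0.58 to 2.02, adjusted p = 0.390 by limma). For Cbr2 the value was 0.00 (95% interval −0.66 to 0.66), and for Cyp4b1 1.33 (95% interval −0.25 to 2.91). Without injured Myd88KO replicate 5 the Cyp4b1 value was 0.78, that of the second Fmo2 probe 1.103 and those of the Sult1b1 probes 2.51 and 2.60, with 0 member probes and 3 of all tested probes (0.0115%) called. The fall of Cyp4b1, Fmo2 and Aldh1a1 in wild-type and its lack of a call in Myd88KO tracheas is thus not shown to be a difference between genotypes.

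**Figure D4:**
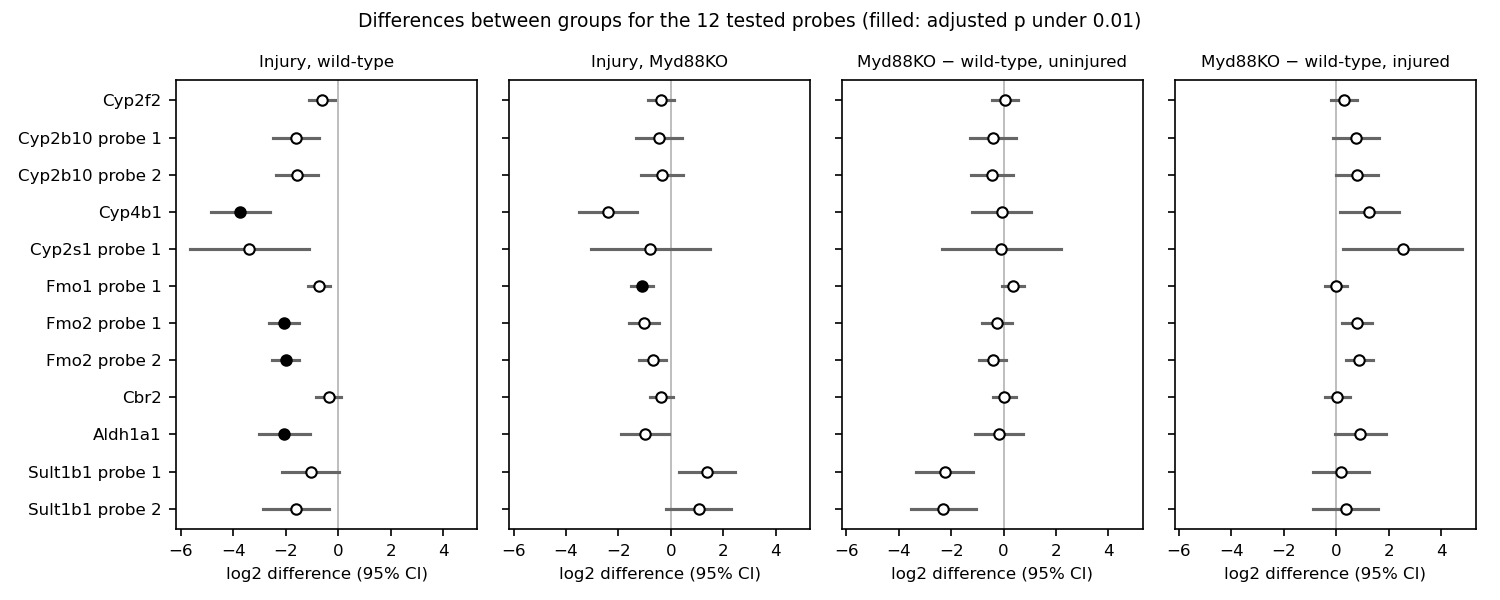
Log2 differences (points) with 95% confidence intervals (lines) from the limma fit for the 12 tested probes in 4 comparisons, filled where the adjusted p was under 0.01. In injured wild-type tracheas all 12 points lie below 0 and 4 are filled, in injured Myd88KO tracheas Fmo1 alone is filled, and neither comparison of genotypes has a filled point.

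Other genes of xenobiotic metabolism were read from 7 lists that held 72 genes, of which 65 were tested. A list gene counted as called when any of its tested probes was called, whereas the shares given beside the counts are of probes. After injury of wild-type tracheas 14 genes were called lower and 1 higher, beside 2.03% of all tested probes called lower and 5.26% called in all, and the median difference of the lists was −0.72. Among 9 further P450 genes, their reductase Por and the electron donor Cyb5a, 3 were lower (median −0.46), of 5 sulfotransferases 2 (median −1.68), of 16 aldehyde and carbonyl enzymes 3 lower and 1 higher (median −0.79), and of 17 glucuronosyl, acetyl and glutathione transferases 5 (median −0.66). Of 5 hydrolases and 1 further flavin monooxygenase 0 were called. A list of xenobiotic-sensing transcription factors with partners and regulators, such as Arnt and Keap1, had 1 of 10 called lower (median 0.01).

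The 5 largest falls among these genes were those of the sulfotransferases Sult1d1 (−4.26) and Sult1c2 (−4.12), Nr1i2, the pregnane X receptor that induces drug-metabolising enzymes (−4.03, adjusted p = 0.000209 by limma), Cyp4a12a, a fatty acid hydroxylase (−3.39 and −3.001 for its 2 probes), and the aldehyde oxidase Aox3 (−2.25, adjusted p = 0.000280 by limma). Aldh1a3, which also makes retinoic acid, rose by 2.52 with 1 of its 2 probes, the other giving 1.02 without a call. After injury of Myd88KO tracheas, Nr1i2 was the 1 list gene called (−3.14, adjusted p = 0.00576 by limma), beside 0.376% of all tested probes. This call was lost with normexp background correction (−1.14, adjusted p = 0.0108), with only the 2 groups compared (adjusted p = 0.0760) and when any 1 uninjured Myd88KO array or any 1 of injured Myd88KO replicates 1 to 4 was left out (adjusted p 0.0101 to 0.0259). It was also lost with the one-way parametric test of the paper's methods after adjustment (adjusted p = 0.162). That test and the fit of only the 2 groups called 0 of all tested probes in this comparison. Where all 20 arrays had to be above background, Nr1i2 was not tested. Without injured Myd88KO replicate 5, 9 list genes were called in place of 1, with Nr1i2, Sult1c2, Ppara, Gstm1, Gstm2, Cyp2a5, Cyp4a12a and Aldh3b1 lower and Akr1b8 higher, beside 4.12% of all tested probes. With replicate 5, Sult1c2 gave −2.92, Sult1d1 −1.22, the first Cyp4a12a probe −1.71, Aox3 −0.84 and Aldh1a3 1.09, none of them called. Between genotypes, uninjured or injured, 0 list genes were called.

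**Figure D5:**
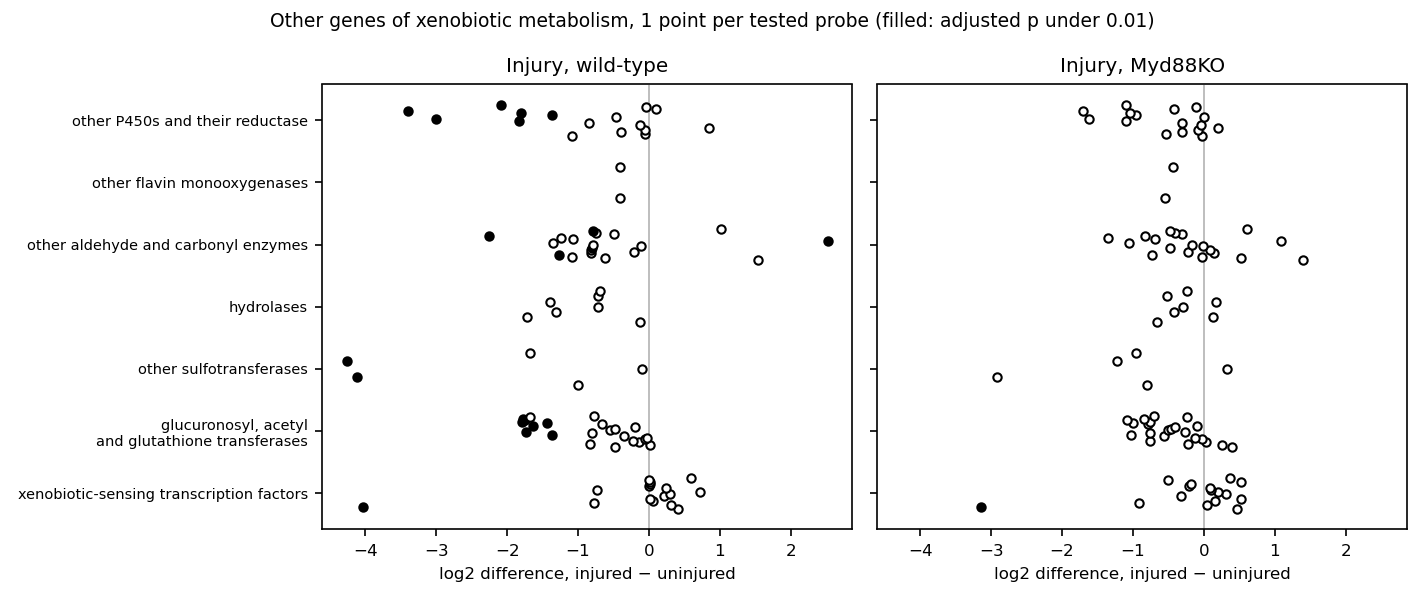
Log2 difference of injured from uninjured tracheas (horizontal axes) for the tested probes of the 7 lists (rows) in wild-type and Myd88KO mice, 1 point per probe, filled where the adjusted p was under 0.01. Of the filled points in wild-type tracheas all but that of Aldh1a3 lie below 0, and the 1 filled point in Myd88KO tracheas is Nr1i2.

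The probes most like each called member were found by the root mean square difference of centred profiles over the arrays. For Cyp4b1 they included Sec14l3 (0.325) and Tctex1d4 (0.367), where Cyp4b1 itself had an SD of 1.84 over the 20 arrays. For Fmo2 they were Gpr155 (0.318), Timp4 (0.357) and Sec14l4 (0.357), beside an SD of 0.95. Aldh1a1 was nearest to Acsm1 (0.261), Mettl7a1 (0.281) and Ulk4 (0.301) over 19 arrays (SD 1.07). Fmo1 was nearest to Gnaz (0.242) and Hadh (0.244) and to a probe without a gene symbol (0.245), but its own SD was only 0.56. These arrays share slides and groups, so that likeness describes a common pattern over them.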

How the data were processed

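Total RNA of 20 mouse tracheas was labelled with Cy3 and hybridised to 1 one-colour Agilent whole mouse genome array each. The authors deposited the scanner output, in which Agilent Feature Extraction 9.5.1.1 had subtracted the background from the intensity of every spot without scaling arrays to one another, and a value table of the same intensity, rounded, used as an alternative. The share of spots well above background was 57.5% to 67.8%, and precision is limited by having 5 arrays per group. P-values set a difference between group means against the spread of these samples within groups.

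Control spots and spots marked as outliers were left out, spots of 1 probe were averaged, and the log2 intensity was taken relative to the array's 75th percentile over probes. Probes well above background on at least 10 arrays were fitted in R 4.3.3 with limma 3.58.1 (all 20 arrays, 5 contrasts, Benjamini-Hochberg, adjusted p under 0.01), a procedure also checked on simulated data. A one-way parametric test, the test given in the paper's methods, was run as an alternative and is called the methods' one-way test here. Other alternatives were normexp background correction with an offset of 50, quantile and median scaling, other filters, array weights, blocks, fewer groups, left-out replicates and, added after the values were seen, outlier spots kept and list counts without injured Myd88KO replicate 5. Members and lists were chosen with earlier results of these data known. Named genes were all member probes, the 5 largest called rises and falls of the pathway lists in each comparison, the 3 genes most like each called member, the markers and Myd88, and 1 gene that met this rule is not reported here. Genes are named as in the files, which state no genome build for their positions. Probe sequences were not used here.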

Additional observations from a re-analysis of the deposited data

Results flagged for a closer look

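Among the 48 sets of arrays checked (12 probes in 4 groups), 2 held a sample far from the others of its group, where chance alone gives about 1 in 20. Cyp2s1 stood at −4.67 in injured wild-type replicate 2, where the nearest array of the group was at 1.98, so that the gap was 0.746 of the group's range. The second Fmo2 probe stood at −0.29 in uninjured wild-type replicate 3, above the next array at −1.27, a gap of 0.799 of the range. In the same array the first Fmo2 probe was also the highest of its group, at 2.71, and Cyp2s1 likewise, at 6.04.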

How the results depend on the processing

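The falls of Cyp4b1 and of both Fmo2 probes in injured wild-type tracheas were called under every alternative run for them, leaving out any single array included (adjusted p at most 0.00165). Aldh1a1 was lost with the replicate block, median scaling, no filter on dim probes and only the 2 groups compared (adjusted p 0.0106 to 0.0260), and could not be tested where all 20 arrays had to be above background. Replicate numbers name slides, and same-numbered arrays correlated at −0.26 to 0.48 over 30 pairs of deviations, 23 of them above 0.1, with 10 of 20 arrays closest to their own number. With the replicate block, 5 member probes were called after injury in wild-type tracheas (1548 of all tested probes) and 0 in Myd88KO tracheas (143 of all). Between uninjured genotypes, between injured genotypes and for the difference between responses 0 were called, beside 101, 112 and 1 of all. The list genes called in Myd88KO tracheas were then 2.

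Member probes called after injury in wild-type tracheas were 7 with array weights. In Myd88KO tracheas they were 4 with array weights and 0 with median scaling, no filter, only the 2 groups compared and the methods' one-way test, adjusted, and 0 to 3 when 1 array was left out. Pathway genes called with array weights were 23 in wild-type and 22 in Myd88KO tracheas, and in the latter 9 without injured replicate 5 and 0 with normexp or with all 20 arrays above background. Between uninjured genotypes, member calls were 1 with array weights, beside 179 of all tested probes. They were 2 with only the 2 groups compared (100 of all) and 2 with the methods' one-way test, unadjusted (743 of all). That unadjusted test also gave 1 between injured genotypes (602 of all). Over all probes, injury in Myd88KO tracheas gave 98 calls, 2086 with array weights, 361 with the scan day block and 0 with only the 2 groups compared. It also gave 0 with the methods' one-way test, adjusted, 56 with median scaling and 60 with no filter on dim probes. In wild-type tracheas the counts were 1372, 2630, 2106, 1579, 1048, 1409 and 1108 in the same order. Leaving out 1 array gave 6 to 1075 and 665 to 1843. Between uninjured genotypes, quantile normalization turned Cyp2f2 to −0.0634 and Cbr2 to −0.0109, and array weights turned Cyp2s1 to 0.0676. Between injured genotypes, Cbr2 turned to −0.0122 with the replicate block, −0.12 with array weights and −0.0220 with the scan day block, and Sult1b1 to −0.12 and −0.15 with array weights. The difference between responses of Cbr2 turned to 0.15 with quantile normalization, 0.000158 with the deposited values and 0.0933 with outlier spots kept. When 1 array was left out, uninjured differences ranged from −0.17 to 0.0659 for Cyp4b1, −0.0446 to 0.15 for Cbr2, −0.0339 to 0.17 for Cyp2f2 and −0.22 to 0.20 for Cyp2s1. Injured differences ranged from −0.25 to 0.50 and −0.13 to 0.69 for Sult1b1, −0.13 to 0.0900 for Fmo1 and −0.12 to 0.13 for Cbr2, whose difference between responses ranged from −0.15 to 0.10. None of these was called, and the causes were not tested.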
